A study of Mus musculus with 12 samples.

Results

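Interferon-stimulated genes are genes whose transcription rises when a cell senses interferon. The 38 described here were chosen as a named list of antiviral effectors and regulators, with earlier results of these data known. They were looked up by symbol among the 56941 genes of the count table. All 38 were in the table, and 30 had enough counts to be tested. The other 8 (Oas3, Ifit1, Ifit3, Iigp1, Rsad2, Cmpk2, Rtp4 and Ifi44) were at or near 0 in every library. They were measured by RNA sequencing in CH12F3-2A, a mouse B cell lymphoma line that can switch its antibody class from IgM to IgA in culture.

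The study asked what NOP16, a nucleolar protein, does in this switch. Cells of all 4 groups were transfected with the Cas9 vector pX459, which carried a guide RNA for Nop16 (sgNop16) or a non-targeting one (sgCtr), and spent 72 h in puromycin. In each case 1 group was left without stimulation and 1 was given CIT for 24 h, a cocktail labelled as anti-CD40L at 1 μg/ml, mouse IL-4 at 20 ng/ml and human TGF-β at 1 ng/ml, both recombinant. Each group had 3 libraries, described as biological replicates. The labels list no interferon among the agents given. They mention puromycin selection and no cloning step, and they name no second guide against Nop16. In such bulk samples, fewer cells with a transcript and less of it per cell cannot be told apart.

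Nop16 (ENSMUSG00000025869) itself was lower with its guide, and most of its mRNA remained. The counts measure mRNA and not NOP16 protein. Levels are CPM, counts scaled to a common library size. Without CIT it was at 104, 108 and 107 CPM in the sgCtr libraries and 85.9, 82.4 and 88.6 CPM in the sgNop16 libraries. With CIT it was at 78.8, 73.1 and 79.3 and 64.7, 66.3 and 66.2 CPM. In both states all 3 sgNop16 libraries lay below all 3 sgCtr libraries. The log2 difference was -0.31 ± 0.04 (SE) without CIT and -0.23 ± 0.04 with CIT (adjusted p = 0.000109 and 0.00204).

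Total counts were 38866418 to 48615177 per library. All 10 B cell markers examined were present, with a summed level of 4164 to 4566 CPM per library. The macrophage markers Lyz2, Fcgr1 and C1qa were at 0 counts in all 12 libraries. The summed level of the 10 macrophage markers was nevertheless 7.78 to 10.8 CPM without and 12.001 to 18.4 CPM with CIT, most of it Cd68 and Csf1r. Siglech, which marks plasmacytoid dendritic cells, had no counts without CIT, and 41 (sgCtr) and 24 (sgNop16) in all with CIT. The 8 markers listed for those cells summed to 555 to 593 CPM without and 672 to 796 CPM with CIT, which came mainly from Tcf4 and Irf8, genes that the B cells themselves can express. The part of these markers in the values below was not tested.

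Type I interferons bind the receptor chains IFNAR1 and IFNAR2 and interferon-γ binds IFNGR1 and IFNGR2. Janus kinases on the receptors then phosphorylate STAT proteins. With IRF9 these form ISGF3, which binds the interferon-stimulated response element (ISRE), while pairs of STAT proteins bind the GAS element. The IL-4 receptor uses the same family of kinases with STAT6. Many of the induced genes are also expressed at a basal level without added interferon, B cells included.

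Promoter sequences are shown first, because the ISRE is the sequence that many of these genes share and because genes with a match went different ways after CIT. The windows are from RefSeq (build GRCm38.p6) and run from 250 bases before to 50 bases after the transcription start. They held 35 windows of 28 of the 38 genes. The other 10 had no window and were not searched: Oas2, Usp18, Parp9, Parp14, Mx1, Mx2, Iigp1, Zbp1, Rtp4 and Ifi27. Of these, Parp9, Parp14 and Ifi27 were called higher after CIT with both guides. A pair of GAAA half-sites with any 2 bases between them, searched on both strands as a minimal ISRE, occurred in 15 of these 35 windows (42.9%), which belong to 14 genes. Over all 32851 windows of the table, 1131 (3.44%) held them. A match describes these letters only and is not evidence of binding.

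The 250 bases before the start are printed 5′ to 3′ in the direction of the gene for 5 genes, with every pair of half-sites, on either strand, in capitals. Gbp3 (chr3:142559794-142560043, plus strand) was called higher with CIT, and its neighbour Gbp7 (chr3:142530086-142530335, plus strand) and Bst2 (chr8:71537473-71537722, minus strand) were called lower. Isg15 (chr4:156200819-156201068, minus strand) was called in neither direction, and Ifit1 (chr19:34640639-34640888, plus strand) was close to 0 counts.
Gbp3: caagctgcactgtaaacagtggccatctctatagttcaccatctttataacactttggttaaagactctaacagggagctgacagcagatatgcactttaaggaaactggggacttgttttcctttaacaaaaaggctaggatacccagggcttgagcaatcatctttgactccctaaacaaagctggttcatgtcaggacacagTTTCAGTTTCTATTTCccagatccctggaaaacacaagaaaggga
Gbp7: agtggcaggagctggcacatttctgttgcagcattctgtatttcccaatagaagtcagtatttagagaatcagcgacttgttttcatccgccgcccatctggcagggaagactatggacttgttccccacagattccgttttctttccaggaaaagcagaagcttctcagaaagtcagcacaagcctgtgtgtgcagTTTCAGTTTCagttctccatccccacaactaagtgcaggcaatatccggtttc
Bst2: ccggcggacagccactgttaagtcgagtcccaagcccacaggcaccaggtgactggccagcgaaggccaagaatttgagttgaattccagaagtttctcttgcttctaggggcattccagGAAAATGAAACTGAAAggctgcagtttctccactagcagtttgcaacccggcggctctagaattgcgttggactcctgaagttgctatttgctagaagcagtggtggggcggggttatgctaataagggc
Isg15: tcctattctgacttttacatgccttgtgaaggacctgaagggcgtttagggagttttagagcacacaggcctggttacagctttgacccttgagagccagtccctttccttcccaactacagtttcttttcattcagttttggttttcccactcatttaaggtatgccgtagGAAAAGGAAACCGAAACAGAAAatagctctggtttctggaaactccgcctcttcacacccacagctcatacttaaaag
Ifit1: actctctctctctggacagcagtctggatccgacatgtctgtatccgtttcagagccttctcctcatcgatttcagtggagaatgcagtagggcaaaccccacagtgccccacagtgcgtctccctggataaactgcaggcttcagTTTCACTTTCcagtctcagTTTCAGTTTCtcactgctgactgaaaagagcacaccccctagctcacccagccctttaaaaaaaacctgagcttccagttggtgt

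Of the genes with a window, a match was found for 3 of 9 that were called higher after CIT with either guide (Eif2ak2, Gbp3 and Trim30a) and for 3 of 5 that were called lower (Bst2, Gbp7 and Irgm1). It was found for 4 of 8 tested genes called in neither direction (Gbp2, Igtp, Isg15 and Oas1a) and for 4 of 6 untested ones (Ifit1, Ifit3, Oas3 and Rsad2). The letters TTCNNNGAA, the core of a GAS element, were in 9 of the 35 windows (25.7%) against 8.3% of all windows. With the spacing that STAT6 prefers, TTC and GAA 4 bases apart, 6 windows (17.1%) matched, against 6.95% of all. The genes with that wider match were Irf9, Oas1a, Ifit2, Dtx3l, Gbp3 and Isg20. For Gbp3 it lay in another window (chr3:142560106-142560405) than the printed one, and that window held no pair of half-sites. All these motifs were searched on both strands without regard to overlap between them.

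The 38 genes differed widely in abundance. In at least 1 group, 26 had a mean of 1 CPM or more, 20 of 5 or more, 15 of 10 or more and 6 of 50 or more. Trim25, Dtx3l, Parp9 and Eif2ak2 together held 50.3% of the summed CPM of the list. Per kilobase of annotated exon, Bst2 (25.7 CPM per kb) and Trim25 (20.7) were highest in unstimulated sgCtr cells, ahead of Ifi27 (13.6), Dtx3l (13.01) and Ifi35 (12.9). With CIT the order in sgCtr cells was Ifi27 (22.5 CPM per kb), Dtx3l (21.5), Trim25 (19.9), Bst2 (18.5) and Parp9 (16.5).

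**Figure D1:**
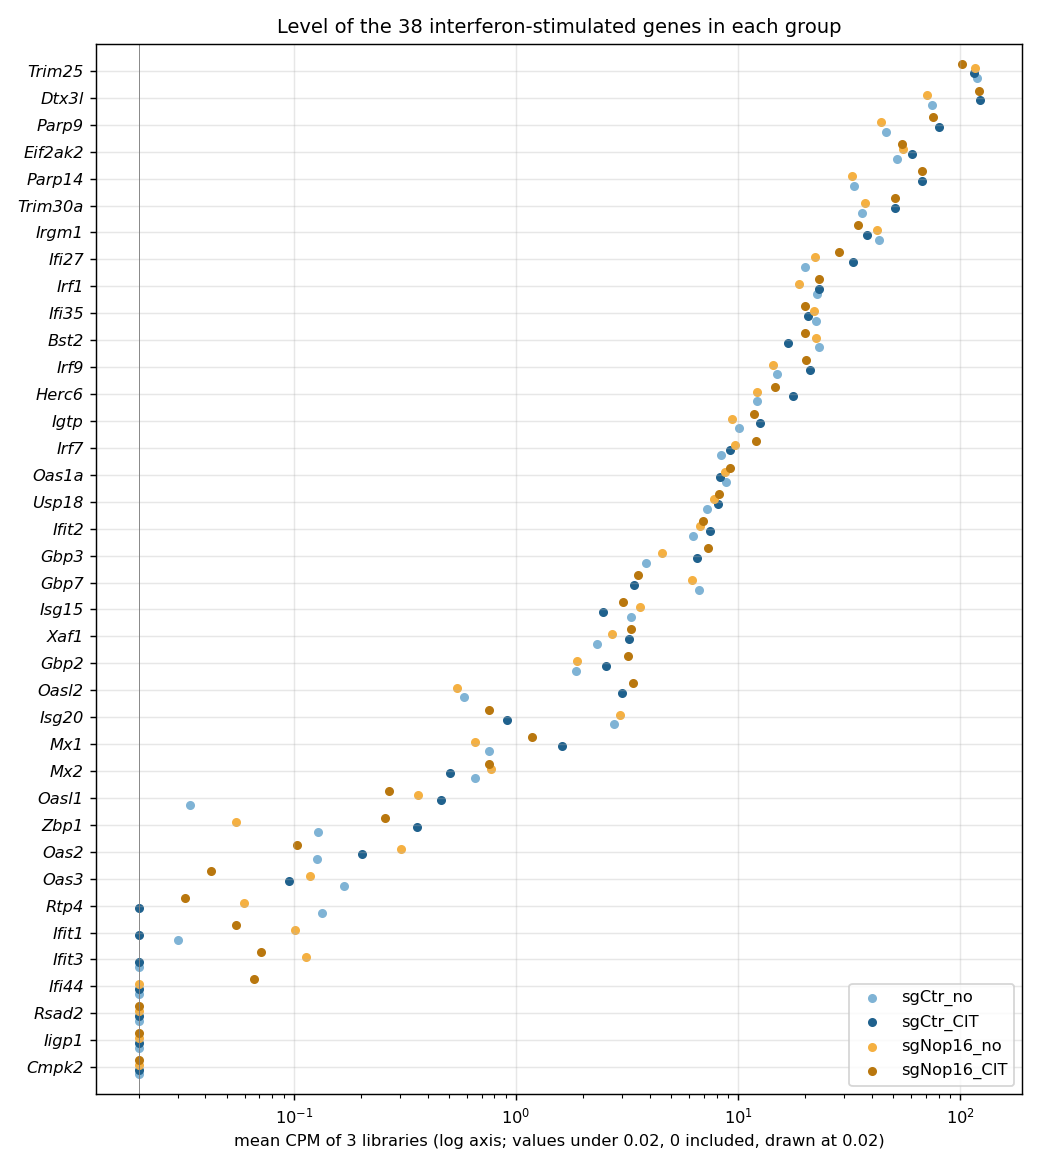
Mean level of each of the 38 genes in the 4 groups, as CPM on a log axis, sorted by the mean over all libraries; each point is the mean of 3 libraries and values of 0 are drawn at the left edge. Genes from Trim25 to Gbp7 reached 5 CPM in some group, while Rsad2, Iigp1 and Cmpk2 had no count in any library.

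Several genes best known as sharp reporters of interferon were barely present. Rsad2 (viperin), Cmpk2, a mitochondrial nucleotide kinase encoded beside it, and the GTPase Iigp1 had 0 counts in all 12 libraries. A count of 0 allows up to 0.247 to 0.309 CPM in a library, taking 12 counts as the limit (3 fragments, if each gave 4 counts), for counting error only. Ifi44 had 8 counts in all, in sgNop16 cells with CIT. Ifit1 had 4 and 0 counts in all in sgCtr cells without and with CIT, and 13 and 8 in sgNop16 cells. Ifit3 had 0 and 0 in sgCtr and 15 and 10 in sgNop16 cells, and Rtp4 had 17, 0, 8 and 4 in the same order. Oas3 was the fullest of the untested genes, with 22 and 13 counts in sgCtr and 15 and 5 in sgNop16 cells. At these counts no difference between groups was detectable.

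The genes for interferons themselves were nearly silent in every group. Of 21 interferon genes in the table, 19, with Ifnb1 and Ifng among them, had no count in any library. Ifnk had 5 and 14 counts in all in sgCtr cells without and with CIT and 23 and 29 in sgNop16 cells, and was called in no comparison. Ifnz had 5, 5, 11 and 2. No library had more than 19 counts of either gene.

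CIT altered the list in both directions in sgCtr cells, with more genes higher than lower. At an adjusted p under 0.05 (edgeR's quasi-likelihood test with Benjamini-Hochberg adjustment over 16794 genes), 11 of the 30 tested genes were called higher and 4 lower. Over all tested genes, 20.6% were called higher and 21.1% lower, or 41.7% in either direction. The median log2 difference was 0.38 over the 30 genes and 0.02 over all tested genes. The 3 libraries of each state did not overlap for 14 of the 30 genes on the higher side and 3 on the lower side, against 25.5% and 25% of all genes (50.6% either way). The summed level of the 38 genes was 576 to 591 CPM without and 727 to 748 CPM with CIT. Most of this rise came from Parp9, Dtx3l and Parp14. Together they were at 149 to 156 CPM without and 269 to 279 CPM with CIT, scaled by library totals alone.

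In sgNop16 cells 9 of the 30 genes were called higher and 4 lower, against 19.3% and 18.5% of all tested genes (37.8% in either direction). Their median log2 difference was 0.28, and that of all genes 0.01. The states did not overlap for 10 genes on the higher and 4 on the lower side, against 24.3% and 22.7% of all genes (47% either way). Summed over the 38 genes the level was 574 to 583 CPM without and 693 to 720 CPM with CIT. Here too most of the rise came from Parp9, Dtx3l and Parp14, at 146 to 149 and 260 to 270 CPM together by library totals. Oasl1 in sgCtr and Zbp1 in sgNop16 cells had an unstimulated level under the floor of 12 counts over the group. Placed at that floor they stay above the medians, which therefore could not move from 0.38 and 0.28. With both guides, Irf9, Oasl2, Trim30a, Parp9, Dtx3l, Parp14, Gbp3 and Ifi27 were called higher after CIT and Irgm1, Gbp7 and Isg20 lower. These 11 calls rest on 2 CIT comparisons that share no library but come from 1 fit with a common estimate of the spread. The share of all genes called the same way with both guides was not counted. The other 6 called genes passed with 1 guide and are described with the test of the difference.

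**Figure D2:**
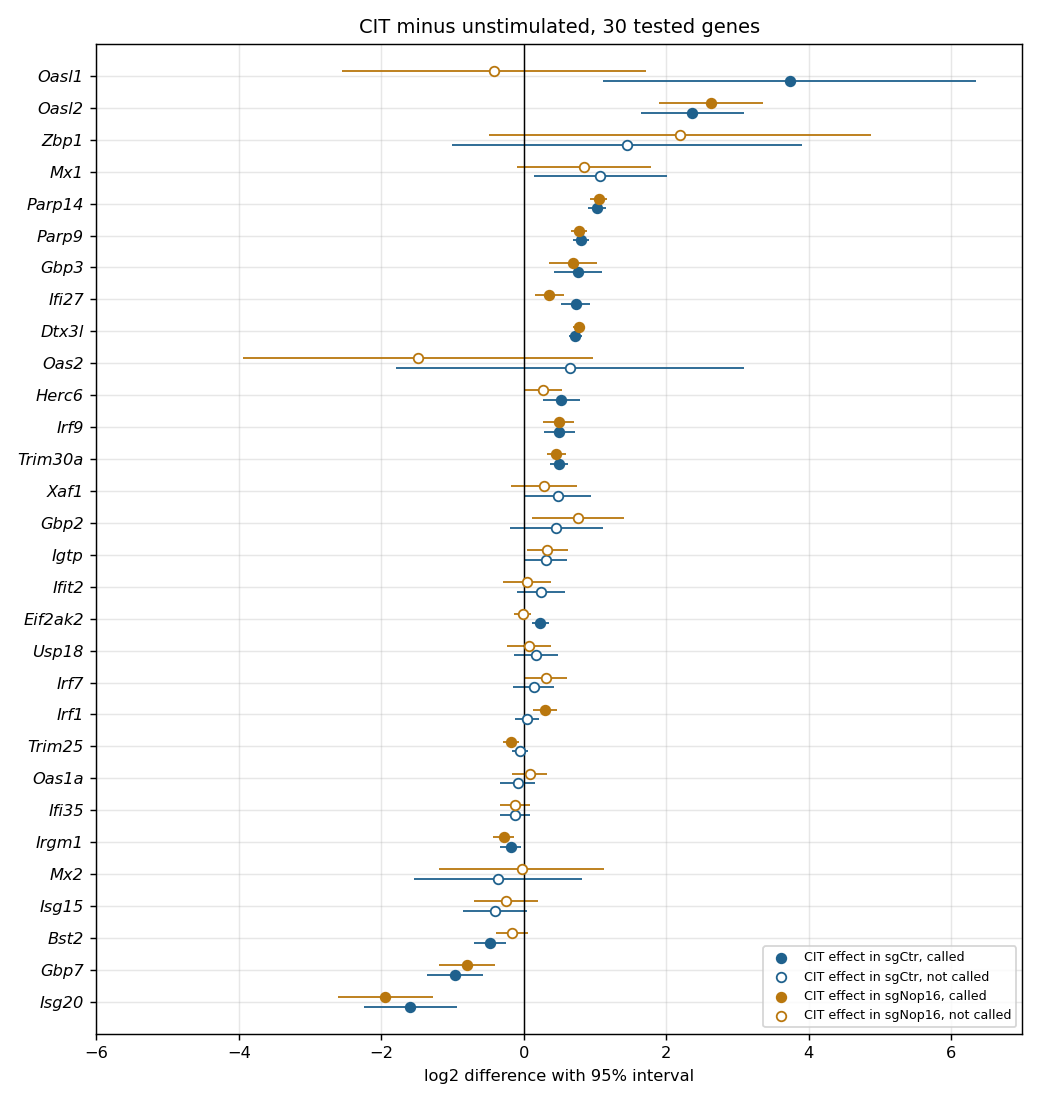
Log2 difference between CIT and no stimulation for the 30 tested genes, with 95% intervals from the model; filled points passed an adjusted p of 0.05. Oasl2 stands highest among the genes called with both guides and Isg20 lowest, and the wide lines of Oasl1, Zbp1 and Oas2 belong to genes under 1 CPM; the sgCtr point of Oasl1 and the sgNop16 point of Zbp1 rest on unstimulated groups with 4 and 7 counts.

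The receptor and kinase genes upstream of the list were examined as context genes. After CIT in sgCtr cells, Ifnar1 (log2 0.62 ± 0.05), Ifngr1 (0.70 ± 0.08), Ifngr2 (2.14 ± 0.04) and Ifnlr1 (4.41 ± 0.25), the chain for type III interferon, were called higher. Il10rb (-0.53 ± 0.06) was called lower, and Ifnar2 (0.04 ± 0.07) was not called. In sgNop16 cells the same 4 genes were called higher and Il10rb lower, with Ifngr2 at 1.95 ± 0.03 and Ifnlr1 at 4.33 ± 0.24. Ifnlr1 went from 0.563, 1.08 and 0.494 CPM to 15.9, 16.5 and 13.5 CPM in the sgCtr libraries, so that no unstimulated library came near a CIT library. Ifngr2 was also higher with the Nop16 guide without CIT (0.13 ± 0.03, adjusted p = 0.0289), and its CIT response was smaller with that guide (interaction -0.18 ± 0.05, adjusted p = 0.039).

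Among the signal transducers, log2 differences after CIT are given for sgCtr and then sgNop16 cells. Stat2 (0.59 ± 0.09 and 0.56 ± 0.10), Jak1 (0.26 ± 0.04 and 0.26 ± 0.04) and Jak2 (2.19 ± 0.08 and 2.17 ± 0.08) were called higher with each guide, and Tyk2, the kinase of IFNAR1, lower (-0.27 ± 0.06 and -0.29 ± 0.06).

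Of the transcription regulators in the list, Irf9 (ENSMUSG00000002325), the DNA-binding subunit of ISGF3, rose with CIT under both guides. It was at 13.2, 15.3 and 16.4 CPM without and 20.5, 20.9 and 22.1 CPM with CIT in sgCtr libraries, and at 16.2, 12.7 and 13.99 and 20.99, 18.5 and 20.8 CPM in sgNop16 libraries. No unstimulated library reached a CIT library. The log2 differences were 0.50 ± 0.11 and 0.49 ± 0.11 (adjusted p = 0.000443 and 0.000647). Irf9 shares 123 exon bases on the same strand with Rnf31, so part of its counts could belong to that gene.

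Irf1, a transcription factor induced through GAS elements, was called higher with CIT in sgNop16 cells and not in sgCtr cells. Its values were 22.8, 23.2 and 21.6 CPM in unstimulated sgCtr libraries and 18.5, 18.9 and 18.98 CPM in unstimulated sgNop16 libraries. After CIT they were 22.02, 21.9 and 25.6 and 23.2, 23.5 and 22.7 CPM, where the groups overlapped. The CIT difference was 0.04 ± 0.08 in sgCtr (adjusted p = 0.747) and 0.30 ± 0.08 in sgNop16 cells (adjusted p = 0.00575), and the interaction did not pass (0.26 ± 0.12, adjusted p = 0.325). Irf7, which amplifies type I interferon production, was at 8.38 ± 1.88 and 9.21 ± 0.700 CPM (SD, n = 3) in sgCtr and 9.71 ± 0.304 and 12.1 ± 0.737 CPM in sgNop16 cells, with no call for CIT. With only the groups compared, Irf7 was called higher in sgNop16 cells (adjusted p = 0.041; 0.041 to 0.251 over all alternatives). Irf7 overlaps exons of the more abundant Phrf1 on the opposite strand by 45 bases.

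The 2-5A synthetase family makes short 2′,5′-linked adenylate chains that activate RNase L. Its member Oasl2 (ENSMUSG00000029561), a synthetase-like protein, had the largest fold among the genes called with both guides. It was at 0.640, 0.790 and 0.322 CPM without and 3.18, 3.29 and 2.55 CPM with CIT in sgCtr libraries. In sgNop16 libraries the values were 0.494, 0.789 and 0.352 and 4.19, 2.80 and 3.12 CPM. Every CIT library was above 2.5 CPM and every unstimulated library below 0.8 CPM. The rise was 5.15-fold (log2 2.36 ± 0.35, adjusted p = 6.23e-06) in sgCtr and 6.16-fold (2.62 ± 0.35, adjusted p = 2e-06) in sgNop16 cells, from a level that was low beside most of the list.

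Oas1a was the most abundant synthetase and did not pass after CIT, at 8.81 ± 0.829 and 8.30 ± 0.336 CPM in sgCtr and 8.68 ± 0.0673 and 9.19 ± 0.212 CPM in sgNop16 cells. Its 95% interval for CIT ran from -0.33 to 0.16 on the log2 scale in sgCtr cells. Oas1a has close paralogs among the Oas1 genes, and how shared reads were split is unknown. Oas2 had 17, 28, 40 and 15 counts in all in sgCtr without CIT, sgCtr with CIT, sgNop16 without and sgNop16 with CIT, and was not called. All 15 counts of the last group were in library 2, and without it Oas2 was called lower with CIT in sgNop16 cells (adjusted p = 0.0158; 0.0158 to 0.654 over all alternatives).

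Oasl1, known in mouse to restrain translation of Irf7, had 4, 0 and 0 counts in the sgCtr libraries without CIT and 23, 33 and 7 with CIT. In sgNop16 libraries it had 23, 11 and 14 and 0, 26 and 11 counts. It was called higher with CIT in sgCtr cells (adjusted p = 0.0203), and not in sgNop16 cells (adjusted p = 0.808). The interaction did not pass (adjusted p = 0.222). No fold is given because the unstimulated sgCtr libraries held 4 counts in all, under the floor of 12. The call was lost when sgCtr libraries 2 or 3 without CIT, or 1 or 2 with CIT, were left out (adjusted p 0.082, 0.0829, 0.0507 and 0.0807; 0.00525 to 0.0829 over all alternatives).

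IFIT proteins bind viral RNA ends, and Eif2ak2 encodes PKR, the kinase that halts translation on double-stranded RNA. Eif2ak2 (ENSMUSG00000024079) was at 55.4, 48.7 and 50.8 CPM without and 61.1, 58.8 and 61.7 CPM with CIT in sgCtr libraries, which did not overlap. In sgNop16 libraries it was at 55.8, 55.5 and 54.8 and 55.4, 58.5 and 50.2 CPM, which did. The CIT difference was 0.23 ± 0.06 (adjusted p = 0.00266) and -0.02 ± 0.06 (adjusted p = 0.861). The difference between these 2 responses was -0.25 ± 0.08 and missed the threshold after adjustment (adjusted p = 0.127).

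Ifit2 stood apart from its silent relatives Ifit1 and Ifit3, with 6.01, 5.96 and 6.87 CPM in sgCtr libraries without CIT and 7.64, 9.22 and 5.49 CPM with CIT. The sgNop16 libraries held 6.46, 6.53 and 7.20 and 6.51, 6.85 and 7.45 CPM. The states overlapped with each guide, and neither comparison passed (log2 0.25 ± 0.16 and 0.04 ± 0.16). Without library 3 of the sgCtr group with CIT, Ifit2 was called higher in sgCtr cells (0.42 ± 0.15, adjusted p = 0.0352; 0.0352 to 0.834 over all alternatives).

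The ISG15 system attaches the ubiquitin-like protein ISG15 to other proteins. Isg15 (ENSMUSG00000035692) itself was low and not called, at 3.27, 2.84 and 3.71 CPM without and 2.03, 2.996 and 2.39 CPM with CIT in sgCtr libraries. The sgNop16 libraries had 3.95, 3.59 and 3.36 and 3.47, 3.09 and 2.57 CPM, and the states overlapped with each guide. Its 95% interval for CIT ran from -0.85 to 0.05 (log2) in sgCtr and -0.70 to 0.19 in sgNop16 cells. Usp18, the protease that removes ISG15 and damps the receptor, was at 7.26 to 8.23 CPM as group means and was called in no comparison.

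Of the ligases, Herc6, which conjugates ISG15 in mouse, was at 12.9, 11.3 and 12.4 CPM without and 16.6, 14.9 and 21.4 CPM with CIT in sgCtr libraries. It was at 13.7, 11.4 and 11.5 and 16.1, 14.9 and 13.1 CPM in sgNop16 libraries, where the states overlapped. Herc6 passed in sgCtr (0.53 ± 0.13, adjusted p = 0.00168) and not in sgNop16 cells (0.27 ± 0.13, adjusted p = 0.11), with no interaction called (-0.26 ± 0.18, adjusted p = 0.61). Trim30a, a mouse TRIM protein that limits NF-κB signalling, rose from 36.1 ± 2.37 to 50.9 ± 2.50 CPM in sgCtr and from 37.1 ± 0.336 to 51.0 ± 2.58 CPM in sgNop16 cells. Its log2 differences were 0.49 ± 0.06 and 0.46 ± 0.06 (adjusted p = 5.49e-07 and 2.02e-06). Trim30a has neighbouring paralogs that could share reads.

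Trim25, a ligase for ubiquitin and ISG15 that acts on the RNA sensor RIG-I, was the most abundant gene of the list by CPM. It was at 117, 131 and 109.8 CPM without and 119, 116 and 109 CPM with CIT in sgCtr libraries, and at 112, 121 and 116 and 105, 104 and 97.3 CPM in sgNop16 libraries. The sgNop16 libraries with CIT were lower than all 9 others. The fall with CIT in those cells was small, -0.18 ± 0.05 on the log2 scale (adjusted p = 0.0076), against -0.05 ± 0.05 in sgCtr cells (adjusted p = 0.468). The interaction was -0.13 ± 0.07 (adjusted p = 0.495).

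The smallest adjusted p of the list belonged to the rises of Parp9, Dtx3l and Parp14. Parp9 is an ADP-ribose-binding protein that forms a complex with the ubiquitin ligase Dtx3l, and Parp14, a mono-ADP-ribosyltransferase, is known as a cofactor of STAT6 in the IL-4 response of B cells. All 3 genes were called higher with both guides. Parp14 (ENSMUSG00000034422) was at 33.4, 34.02 and 32.3 CPM without and 66.3, 68.2 and 68.1 CPM with CIT in sgCtr libraries. In sgNop16 libraries it was at 29.6, 32.7 and 35.6 and 68.6, 68.0 and 66.0 CPM. The CIT libraries thus held 2.03 and 2.07 times the unstimulated level (log2 1.02 ± 0.06 and 1.05 ± 0.06, adjusted p = 1.58e-12 and 1.18e-12).

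Parp9 (ENSMUSG00000022906) was at 46.4, 46.3 and 46.1 CPM without and 80.1, 78.6 and 83.0 CPM with CIT in sgCtr libraries, and at 46.8, 43.8 and 41.8 and 71.9, 75.2 and 79.3 CPM in sgNop16 libraries. Dtx3l (ENSMUSG00000049502) was at 72.0, 77.9 and 73.6 and 119, 126 and 124 CPM in sgCtr libraries, and at 71.0, 72.7 and 69.7 and 118, 125 and 123 CPM in sgNop16 libraries. For both genes the CIT libraries lay far above all unstimulated ones. The log2 differences were 0.80 ± 0.05 and 0.77 ± 0.05 for Parp9 and 0.72 ± 0.04 and 0.78 ± 0.04 for Dtx3l, with adjusted p from 4.76e-13 to 3.06e-11. Parp9 and Dtx3l share 458 exon bases on opposite strands. How counting treated the strand is not stated in the sources used, so reads from that stretch may count for either gene.

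**Figure D3:**
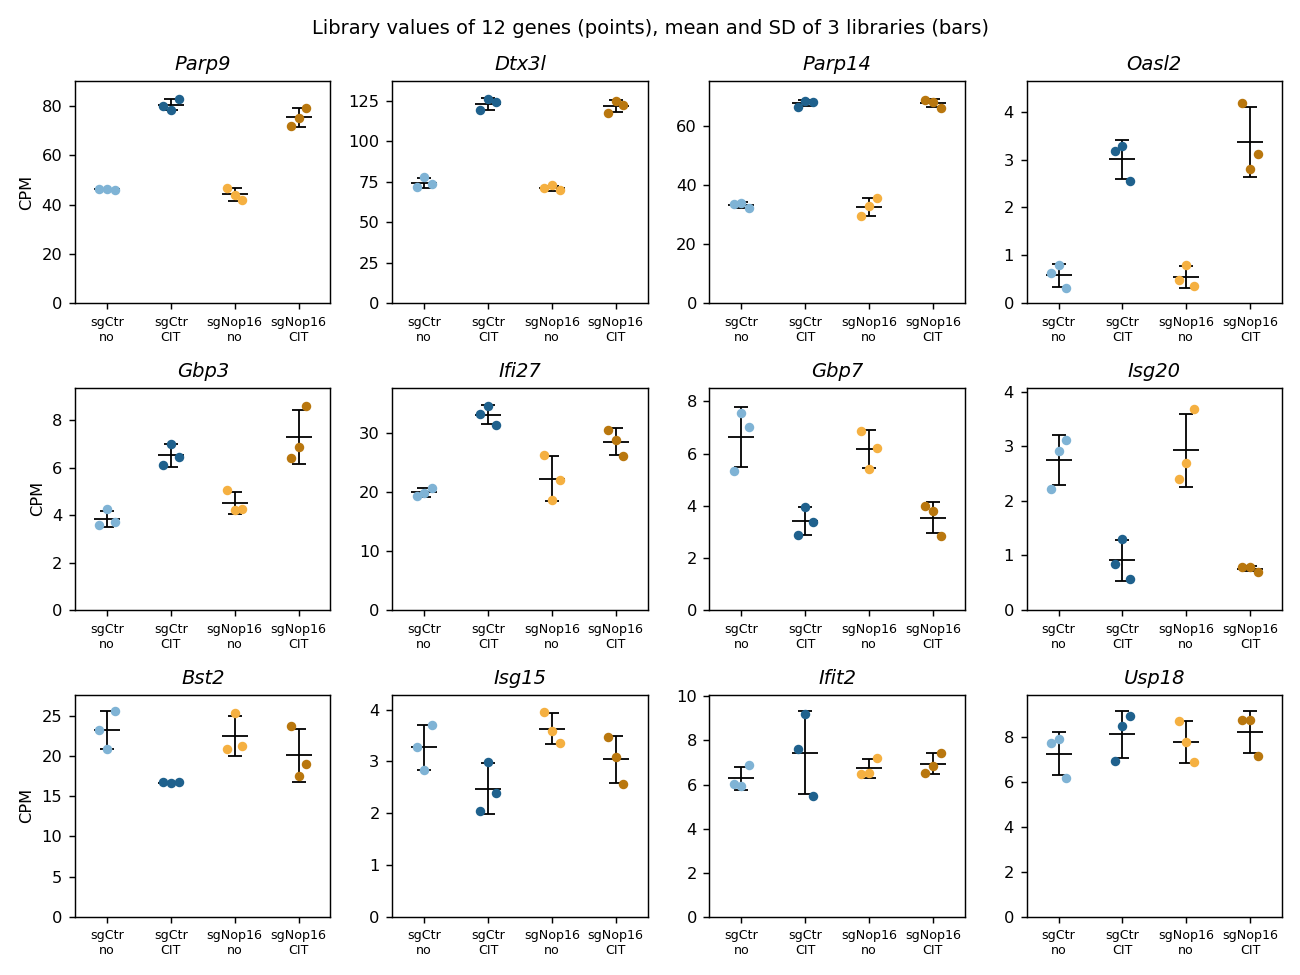
CPM of 12 of the genes in every library (points), with the mean and SD of the 3 libraries of each group (bars); each vertical axis starts at 0. Parp9, Dtx3l, Parp14, Oasl2 and Gbp3 lie higher with CIT under both guides and Gbp7 and Isg20 lower, without overlap; Ifi27 does so with sgCtr and overlaps slightly with sgNop16, whereas the groups of Isg15, Ifit2 and Usp18 overlap.

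The large GTPases of the list moved in different directions. Guanylate-binding proteins attack the membranes that enclose pathogens. Gbp3 (ENSMUSG00000028268), of which 1 promoter window is printed above, was at 3.61, 4.24 and 3.71 CPM without and 6.10, 7.03 and 6.44 CPM with CIT in sgCtr libraries. In sgNop16 libraries it was at 5.07, 4.23 and 4.27 and 6.44, 6.89 and 8.59 CPM. Gbp7 (ENSMUSG00000040253) went the other way, from 5.35, 7.56 and 7.02 to 2.88, 3.97 and 3.36 CPM in sgCtr and from 6.87, 5.43 and 6.22 to 3.98, 3.79 and 2.86 CPM in sgNop16 libraries. In both genes no library of one state reached the other state with the same guide. Gbp3 was 1.69-fold and 1.61-fold higher (adjusted p = 0.000508 and 0.00136), and Gbp7 1.95-fold and 1.74-fold lower (adjusted p = 0.000207 and 0.00156). Gbp2 was at 1.85 ± 0.595 and 2.54 ± 0.293 CPM in sgCtr and 1.89 ± 0.397 and 3.20 ± 1.33 CPM in sgNop16 cells and passed with neither guide (adjusted p = 0.273 and 0.0607). In sgNop16 cells it was called higher with counts divided by 4 (0.033) and without library 3 of the CIT group (0.00835), in a range of 0.00835 to 0.335 over all alternatives. The Gbp genes are close paralogs, so their split of reads is uncertain.

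Immunity-related GTPases act on the same membranes. Irgm1, their regulatory member, was at 45.5, 38.6 and 44.9 CPM without and 35.96, 38.5 and 39.1 CPM with CIT in sgCtr libraries. In sgNop16 libraries it was at 42.5, 40.1 and 44.5 and 33.1, 37.5 and 33.6 CPM, with every CIT library below every unstimulated one, whereas the sgCtr libraries overlapped. The falls were small, -0.18 ± 0.07 (adjusted p = 0.0424) and -0.28 ± 0.07 (adjusted p = 0.00274). In sgCtr cells the call was lost without library 1 or 3 of the unstimulated group or library 1 or 2 of the CIT group (adjusted p 0.182, 0.151, 0.158 and 0.0638), and under 6 of 9 other settings (0.00671 to 0.182 over all). Igtp, which shares 162 exon bases with Irgm2 on the same strand, had log2 differences of 0.31 ± 0.14 and 0.33 ± 0.14 that did not pass (adjusted p = 0.0811 and 0.0702). Igtp was called higher with both guides under the stricter filter (0.0389 and 0.0383) and with counts divided by 4 (0.0497 and 0.0441). It was also called without library 1 of the sgCtr group with CIT (0.0261) or library 2 of the unstimulated sgNop16 group (0.0337). Over all alternatives its adjusted p ran from 0.0261 to 0.443 in sgCtr and from 0.0337 to 0.298 in sgNop16 cells.

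Mx1 and Mx2, dynamin-like antiviral GTPases, were under 2 CPM in every library. Mx1 was at 0.486, 0.519 and 1.27 CPM without and 1.44, 1.84 and 1.54 CPM with CIT in sgCtr libraries, where the states did not overlap, and at 0.537, 1.03 and 0.399 and 1.71, 1.09 and 0.726 CPM in sgNop16 libraries, where they did. It did not pass with either guide (1.07 ± 0.45, adjusted p = 0.0595, and 0.84 ± 0.45, adjusted p = 0.164). In sgCtr cells Mx1 was called higher without library 3 of the unstimulated group (1.67 ± 0.49, adjusted p = 0.00953), with only the groups compared (0.0445) and with counts divided by 4 (0.0294), in a range of 0.00953 to 0.202 over all alternatives. Mx2 had group means of 0.504 to 0.770 CPM and passed no test.

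Of the effectors that act on nucleic acids and membranes, Isg20, an RNA exonuclease, had the largest fall of the list. It was at 2.23, 2.91 and 3.11 CPM without and 0.846, 1.31 and 0.571 CPM with CIT in sgCtr libraries, and at 2.40, 2.70 and 3.68 and 0.792, 0.782 and 0.702 CPM in sgNop16 libraries. All CIT libraries were below all unstimulated libraries. Isg20 fell 3.02-fold in sgCtr (log2 -1.59 ± 0.31, adjusted p = 0.000212) and 3.85-fold in sgNop16 cells (-1.95 ± 0.32, adjusted p = 2.98e-05). Zbp1, a sensor of Z-form nucleic acid that triggers necroptosis, had 3, 7 and 7 and 15, 20 and 14 counts in sgCtr libraries and 0, 0 and 7 and 19, 14 and 0 in sgNop16 libraries, with no call. All 7 counts of the unstimulated sgNop16 group were in library 3, and without it Zbp1 was called higher with CIT in sgNop16 cells (adjusted p = 0.0249; 0.0249 to 0.566 over all alternatives).

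Bst2 (tetherin) holds budding virus at the cell surface and was the most abundant member per kilobase in unstimulated cells. It was at 23.2, 20.9 and 25.6 CPM without and 16.7, 16.6 and 16.7 CPM with CIT in sgCtr libraries, and at 20.9, 25.4 and 21.3 and 23.8, 17.4 and 18.98 CPM in sgNop16 libraries. In sgCtr cells the states did not overlap, and in sgNop16 cells they did. The fall passed in sgCtr (-0.48 ± 0.11, adjusted p = 0.00107) and not in sgNop16 cells (-0.17 ± 0.11, adjusted p = 0.266). Without library 1 of the sgNop16 group with CIT it passed there too (-0.31 ± 0.11, adjusted p = 0.0327; 0.0327 to 0.703 over all alternatives). The interaction was 0.31 ± 0.16 (adjusted p = 0.404).

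Among the remaining genes, Ifi27 (ENSMUSG00000064215), which encodes a small mitochondrial protein, was at 19.2, 19.9 and 20.7 CPM without and 33.2, 34.5 and 31.3 CPM with CIT in sgCtr libraries. In sgNop16 libraries it was at 26.2, 18.5 and 22.04 and 30.5, 28.8 and 26.04 CPM, where library 1 without CIT just exceeded library 3 with CIT. The rise was 1.66-fold in sgCtr (adjusted p = 1.82e-06) and 1.28-fold in sgNop16 cells (adjusted p = 0.00589), and the interaction did not pass (-0.37 ± 0.14, adjusted p = 0.183). Without library 2 of the unstimulated sgNop16 group the sgNop16 call was lost (0.23 ± 0.09, adjusted p = 0.0708) and the interaction was called (-0.50 ± 0.12, adjusted p = 0.0342). Over all alternatives the adjusted p ran from 0.000473 to 0.0708 for the former and from 0.0342 to 0.443 for the latter. Ifi35 had group means of 20.1 to 22.3 CPM and passed no test. Xaf1, a partner of the apoptosis inhibitor XIAP, had group means of 2.31 to 3.30 CPM and was not called. In sgCtr cells its CIT libraries lay above all unstimulated ones (0.48 ± 0.22, adjusted p = 0.0934), and it was called without library 3 of the unstimulated group (adjusted p = 0.0401; 0.0401 to 0.275 over all alternatives).

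None of the 30 genes was called between the guides, either without CIT, with CIT, or as a difference between the CIT responses. By the same edgeR test 4.06% of all genes were called without CIT (2.14% higher and 1.92% lower), 7.12% with CIT (4.05% and 3.07%) and 2.83% for the interaction (1.23% and 1.6%). At an unadjusted p under 0.05 there were 2 genes without CIT (Irf1 and Oasl1), 5 with CIT (Irf7, Eif2ak2, Trim25, Bst2 and Ifi27) and 4 for the interaction (Irf1, Oasl1, Eif2ak2 and Ifi27). The corresponding shares of all genes were 14.7%, 18.5% and 13.3%. DESeq2 called 1 gene without CIT, 1 with CIT and 0 for the interaction. Without CIT the sgNop16 libraries lay above all sgCtr libraries for 2 genes and below them for 1, against 9.44% and 9.4% of all genes (18.8% either way). With CIT they lay above for 3 genes and below for 3, against 13.2% and 10.9% (24.1% either way).

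**Figure D4:**
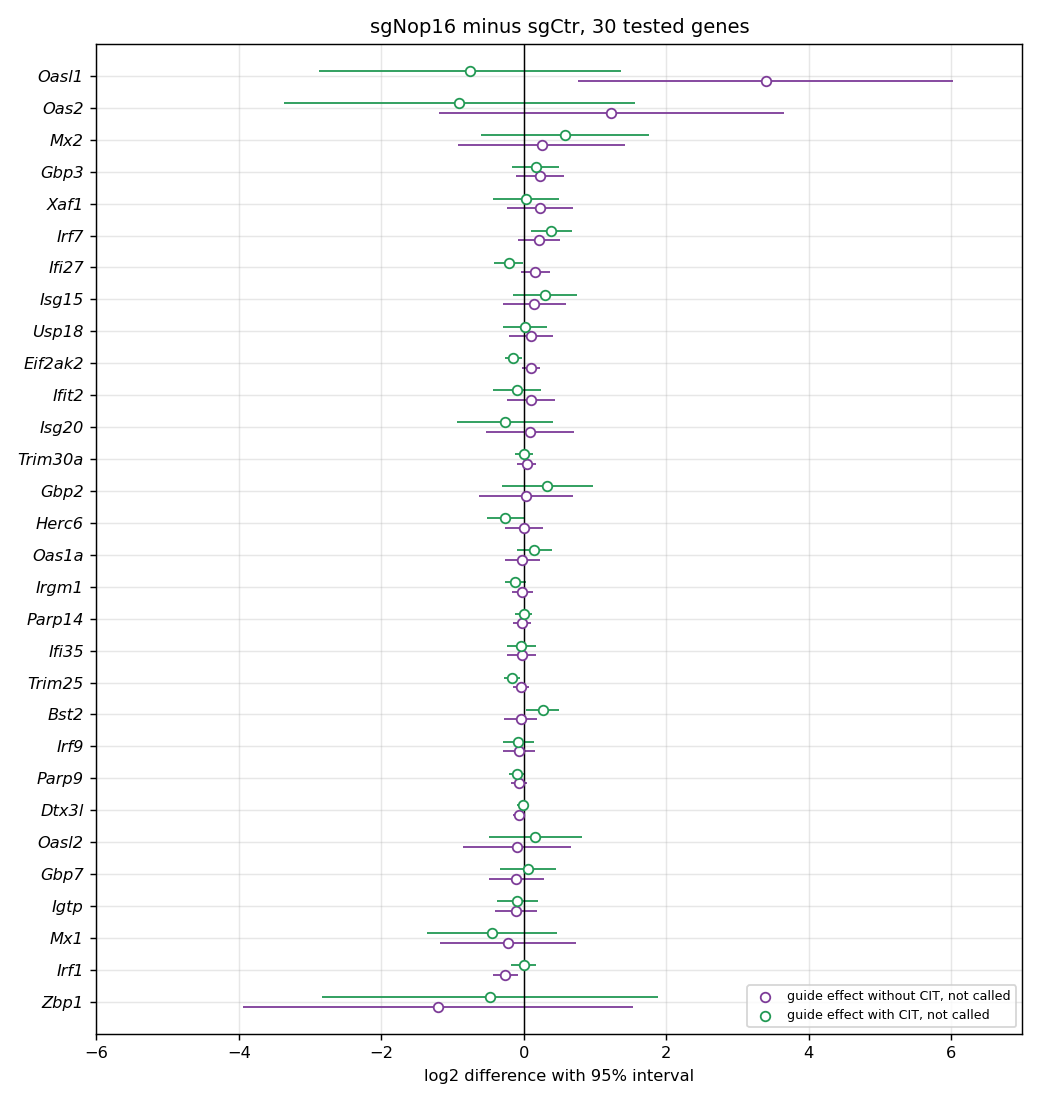
Log2 difference between sgNop16 and sgCtr cells for the 30 tested genes, without and with CIT, with 95% intervals from the model. All points are open because none passed an adjusted p of 0.05, and the widest intervals belong to Oasl1, Oas2 and Zbp1, which had under 1 CPM; without CIT, 1 group of Oasl1 and 1 of Zbp1 held 4 and 7 counts.

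For the better measured genes the intervals limit how large a guide difference could be. Of the 20 genes with 5 CPM or more in some group, the 95% interval of the guide difference lay within 1.5-fold for all 20 without CIT and for 19 with CIT. All 20 lay within 2-fold in both states. For the interaction, 14 lay within 1.5-fold and all 20 within 2-fold. Parp14, for example, had a guide difference of -0.03 ± 0.06 without CIT (interval -0.15 to 0.10) and Dtx3l one of -0.02 ± 0.04 with CIT (interval -0.10 to 0.07).

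The genes nearest to a call were Irf1, Trim25 and Irf7. Irf1 without CIT was lower in all 3 sgNop16 libraries than in all 3 sgCtr libraries (log2 -0.26 ± 0.08, adjusted p = 0.0858). DESeq2 called it (adjusted p = 0.0476), and its adjusted p ran from 0.0476 to 0.236 over all alternatives. Trim25 with CIT was also lower in every sgNop16 library (log2 -0.17 ± 0.05, adjusted p = 0.0619). It was called under 6 of 9 other settings and without library 3 of the sgCtr group with CIT, with adjusted p from 0.0208 to 0.248 over all alternatives. Irf7 with CIT was higher in every sgNop16 library (0.39 ± 0.14, adjusted p = 0.108).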

How the data were processed

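RNA from 12 libraries was prepared with a directional kit, per the labels' protocols. Per the submitters' processing notes, HISAT2 2.2.1, StringTie 2.2.1 and GRCm39 were used. Neither the annotation release nor how strand was treated in counting is stated there. The deposited values are estimated counts, already whole numbers, for 56941 genes. In the table, 8845 values were 4, against 7532 at 3 and 4025 at 5, but 1 was commoner (9797), and 8 (3745) and 12 (2264) showed no excess over 7 (4431) and 11 (2555). How many counts a fragment gave is therefore unknown. A floor of 12 counts was used, which is 3 fragments if each gave 4.

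Symbols, exon lengths and exon overlaps came from the GENCODE M21 annotation of build GRCm38. The whole table was fitted with edgeR 4.0.16 (R 4.3.3): filterByExpr kept 16794 genes, TMM factors lay between 0.985 and 1.013, and the quasi-likelihood fit with a mean per group and robust dispersions gave 5 contrasts: CIT within each guide, the guide within each state, and the interaction. Adjusted p is by Benjamini-Hochberg over all tested genes, with calls under 0.05. CPM uses TMM-scaled library sizes. Errors are SD over 3 libraries or an SE. The SE was derived as the absolute log2 difference divided by the square root of the test's F statistic. The 95% log2 intervals were built from that SE with the t distribution.

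The 38 genes, the context lists and the alternatives were chosen with earlier results of these data known. All 38 are named; of the context lists, receptors, transducers and up to 3 called genes each way with the largest difference were eligible. Alternatives were DESeq2 1.42.0, RLE size factors, library totals, no low-count filter, a stricter one (5 CPM in 3 libraries), a replicate block, fits of the compared groups alone, counts divided by 4, and leaving out each library. A fit without the robust option was added after seeing the data. One signalling gene is not reported here.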

Additional observations from a re-analysis of the deposited data

How the results depend on the processing

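Over all alternatives no listed gene reversed a call. Of the comparisons of single listed genes, or of Nop16, with an alternative, 2352 kept their side of the threshold, 26 gained a call and 15 lost one. With the filter of 5 CPM, 2 listed genes were called lower by CIT in sgCtr cells in place of 4. Isg20, under 5 CPM in every library, was not tested there, and Irgm1 lost its call (edgeR, adjusted p = 0.0503). For the guide difference without CIT, DESeq2 called 1 listed gene lower in place of 0. With CIT, 1 gene, Trim25, was called lower in place of 0 with library totals, the stricter filter, the replicate block, only the groups compared, counts divided by 4 and DESeq2. Leaving out 1 library in turn gave 0 to 1 there and 0 to 1 for the interaction, where the gene was Ifi27. Over all genes, leaving out a library gave 184 to 220 genes lower with the Nop16 guide without CIT (322 with all libraries), 412 to 498 higher with CIT (680) and 100 to 171 with a higher interaction (207). DESeq2 gave 366 for the last. The cause was not tested.

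The labels do not say that a replicate number marks a shared day, and same-numbered libraries did not deviate together: the correlation of their deviations ran from -0.32 to 0.20 over 18 pairs. With the replicate block, 11 listed genes were called higher and 3 lower by CIT in sgCtr cells, Irgm1 being lost (adjusted p = 0.0533), and 9 and 4 in sgNop16 cells. Over all genes that fit called 3423 higher and 3509 lower in sgCtr cells, and 3163 and 3084 in sgNop16 cells. Depth limits the 8 untested genes and the 4 tested ones under 1 CPM in every group.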

Other observations

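Of 91 further interferon-induced genes looked up in the same table, 67 were tested. After CIT 25 were called higher and 11 lower in sgCtr cells, and 19 and 12 in sgNop16 cells, against 20.6%, 21.1%, 19.3% and 18.5% of all genes. Lgals3bp, a secreted glycoprotein, went from 49.1 ± 3.01 to 242 ± 7.54 CPM (SD, n = 3) in sgCtr cells, a log2 rise of 2.30 ± 0.04. Dhx58 (LGP2), an RNA sensor, rose by 1.85 ± 0.07, and Ifi30, a lysosomal thiol reductase of antigen presentation, by 1.75 ± 0.04. Phf11b was lower (log2 -2.21 ± 0.12), as was Ifitm2, a membrane protein that hinders viral entry (-0.69 ± 0.05). Of 15 tested genes of interferon induction and feedback, 8 were called higher and 3 lower in sgCtr cells, and 8 and 4 in sgNop16 cells. In sgCtr cells Socs3 (2.47 ± 0.20) and Socs1 (1.66 ± 0.06), which block Janus kinases, and Irf5 (1.25 ± 0.04), a regulator of cytokine genes, had the largest log2 rises. Irf5 shares 411 exon bases on the opposite strand with Tnpo3, which had 149027 counts in all, so reads from that stretch may count for either gene. The 3 lower ones were the repressor Irf2 (-0.42 ± 0.07), the kinase gene Tbk1 (-0.35 ± 0.06), which acts in interferon induction, and Ptpn6 (-0.27 ± 0.03), which encodes the inhibitory phosphatase SHP-1.

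Between the guides, 6 of the 67 were called higher and 4 lower without CIT, and 4 and 6 with CIT, at an adjusted p under 0.05 (edgeR), against 2.14%, 1.92%, 4.05% and 3.07% of all genes. Whether this differs from the 30 genes above was not tested. Plac8 was lower with the Nop16 guide without CIT (-0.26 ± 0.04, adjusted p = 0.000319) and with CIT (-0.49 ± 0.04, adjusted p = 5.73e-08). Phf11b was higher in both states (0.62 ± 0.11 and 0.59 ± 0.13). Of the 15 induction and feedback genes, 2 were called higher with the Nop16 guide and none lower without CIT, and 2 and 3 with CIT. With CIT, the B cell regulator Irf8 was at 261, 290.2 and 269 CPM in sgCtr and 226, 219 and 213 CPM in sgNop16 libraries (-0.32 ± 0.04), and without CIT it was higher with the Nop16 guide (0.20 ± 0.04). The nucleic acid receptors Tlr9 (-0.37 ± 0.06) and Tlr7 (-0.31 ± 0.07) were lower with that guide after CIT. Ifitm1 was higher (0.49 ± 0.11, adjusted p = 0.00758), at 14.7, 15.3 and 15.1 CPM against 9.51, 12.4 and 10.1 CPM. Ifi205 had no count in the unstimulated sgNop16 libraries, 38 in all in unstimulated sgCtr libraries, and 112 (sgCtr) and 91 (sgNop16) with CIT.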
